A study of Mus musculus with 16 samples.

Results

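Bifidobacterium longum is an anaerobe best known from the gut of breast-fed infants, and Bacteroides thetaiotaomicron is an anaerobe of the adult colon that degrades dietary and host glycans. The cecal epithelium that lies beside them absorbs water, salt and fatty acids, and it answers bacteria with secreted lectins and other antibacterial proteins, mucus and cytokine-responsive transcripts. Interferon-stimulated genes are a set of antiviral effectors and regulators that rise together when a cell senses interferon. The comparison described here asked which transcripts of laser-captured cecal epithelium differed between gnotobiotic mice with B. longum and mice without it, irrespective of whether B. thetaiotaomicron was there too.

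The members were the 8 Mouse 430 2.0 GeneChips of the series, out of 16 samples in all, split by the labels into 4 with B. longum and 4 without. B. longum was present alone (Bl, GeneChips 9134 and 9135) or with B. thetaiotaomicron (Bt/Bl, GeneChips 9132 and 9133), and it was absent from germ-free mice (GF, GeneChips 9128 and 9129) and from mice with B. thetaiotaomicron alone (Bt, GeneChips 9130 and 9443). All were adult NMRI mice given polysaccharide-rich chow, described as males in the study's methods, and the colonized ones had carried their bacteria for 10 days. Each state was 1 pool of RNA from 4 mice, amplified and hybridized separately on its 2 GeneChips. The spread between those GeneChips is therefore that of amplification and hybridization, the comparison has 2 pools a side, and its p-values do not measure the spread between mice.

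Values were MAS5 signals, a linear brightness per probe set that had been scaled to the same trimmed mean, 1499, on every GeneChip. The median of all values in the table was 583.1, and a probe set was kept if both of its signals in some state lay above that, which left 24865 probe sets for 12937 named genes. Lower signals were raised to that floor, and 43.2% to 56% of the values of a GeneChip lay above it. The main effect of B. longum is the log2 difference of presence over absence with B. thetaiotaomicron as a block, which equals the mean of Bl minus GF and Bt/Bl minus Bt. These component differences share no GeneChip. Where a gene had more than 1 probe set the brightest stood for it, and "called" means an adjusted p under 0.05 over all probe sets kept (limma with Benjamini-Hochberg adjustment).

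The GF pool stood apart from the other pools in several ways that touch the side without B. longum, of which it is 1 of 2 pools. Xist is transcribed from the inactive X chromosome. Its signals were 4400 and 3750 in Bl, 7540 and 11200 in Bt/Bl, against 17200 and 22800 in GF and 4910 and 5090 in Bt. Bt/Bl lay above Bt, and the component differences of Xist differed from each other (interaction on the log2 scale 3.16, adjusted p = 0.0166, limma). The Y-linked gene Eif2s3y had 3200 to 5660 in the colonized pools, against 71.3 and 614 in GF. Signal at the 3' end over signal at the 5' end of Gapdh, which depends on RNA integrity and amplification, was 8.93 to 17.6 in the colonized pools, against 5.66 to 7.26 in GF. That of Actb was 21.4 to 36.3 in the colonized pools, against 36.9 to 38.8 in GF. The ratios of these genes thus set GF apart in opposite directions, and that of Actb did so only narrowly, with 36.3 on Bt 9443. The Xist and Eif2s3y signals of the library labelled GF go against male mice in that pool. Xist was above the floor of 583.1 in the colonized pools too, at 3750 to 11200, although those mice were also described as males. Y-linked Kdm5d had 178 and 301 in GF and 868 to 1160 in the colonized pools, apart from 145 on Bt 9443. Uty, also Y-linked, did not set GF apart, with 832 and 1110 there and 57 to 2030 in the colonized pools. A difference in sex or in RNA between GF and the other pools cannot be told apart from that of B. longum in Bl minus GF, which enters every main effect. What the Xist difference between Bt/Bl and Bt reflects was not tested. Epithelial keratins and adhesion genes were bright throughout, with the summed signal of 8 epithelial markers at 1118638 to 1455454 with B. longum and 988641 to 1241359 without it. Correlations between the duplicate GeneChips of a state over all probe sets kept ran between 0.883 for Bl and 0.947 for Bt/Bl.

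With B. longum, 10 probe sets were higher (0.0402% of those tested) and 24 were lower (0.0965%), which came to 8 genes higher (0.0618% of 12937) and 20 genes lower (0.155%). The higher genes were those of an antibacterial ribonuclease (Ang4), 3 interferon-stimulated proteins (Ifit1, Ifit1bl1 and Rtp4), and 4 others of varied function (Plet1, Tubb2a, Trim40 and Gsdmc2). One more higher probe set belonged to Mal, a membrane proteolipid (log2 1.01, adjusted p = 0.0257, limma), whose brightest probe set had 0.71 and was not called (adjusted p = 0.304, limma). Among the lower genes were lipid carriers (Apoa1, Apoa4, Apob and Fabp6), nutrient transporters (Slc5a9 and Slc7a9), a bactericidal lectin (Reg3b) and genes of the connective tissue (Adamdec1, Col1a2, Lgals1 and Tgfbi). At an unadjusted p under 0.05 there were 486 genes higher (3.76%) and 466 lower (3.6%). Both component differences had the same sign for 33 of the 34 called probe sets, and for 10705 of all 24865 (43.1%), the remainder having opposite signs or a difference of 0. A call is made on the mean of these differences, which favours probe sets where they share a sign. The 33 of 34 is therefore no independent evidence of agreement. Over all probe sets tested the differences had a Pearson correlation of -0.06.

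The calls rested on all 4 pools together and on the settings. The split of higher against lower probe sets was 3 against 14 with median or 75th percentile scaling and 21 against 27 with quantile normalization, and 0 passed without the filter on low signals (1633 at an unadjusted p under 0.05) or without limma's intensity trend (1530). No probe set passed in limma with the GF GeneChips left out, when the effect is Bt/Bl minus Bt alone, although 2022 had an unadjusted p under 0.05. None passed in Bl against GF alone either, with 2488 at that level. With 1 GeneChip left out, the number of higher probe sets ran between 1 (without GF 9128 or without Bt 9443) and 22 (without Bl 9134), and the number of lower ones between 4 (without Bl 9135) and 31 (without Bl 9134). Apoa1 and Gja1 were called in all 8 of these fits, Prss23 in 7, Tgfbi in 0, and the other 24 genes in 1 to 6. The scatter of both differences sets each gene's value without B. thetaiotaomicron against that with it.

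**Figure D1:**
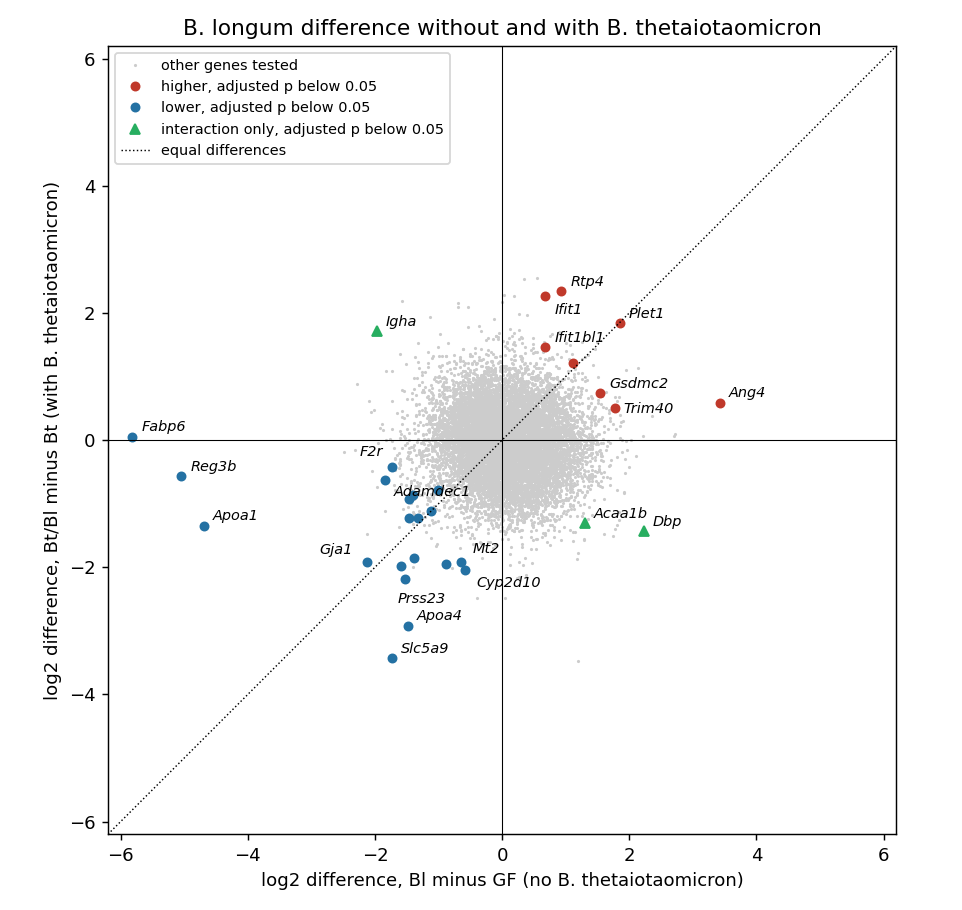
Each grey point is a gene, with the log2 difference of Bl minus GF on the horizontal axis and that of Bt/Bl minus Bt on the vertical axis, and called genes are coloured. Gja1 (-2.13 and -1.91) and Plet1 (1.85, with GF at the floor, and 1.84) lie close to the line of equal differences, whereas Fabp6 (-5.82 and 0.05) and Reg3b (-5.05 and -0.57) lie along the axis of Bl minus GF.

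Ang4, an angiogenin-family ribonuclease secreted by Paneth and goblet cells that kills bacteria, showed the largest increase. Its signal was 46895 and 40107 in Bl, 9287 and 8912 in Bt/Bl, against 3818 and 4280 in GF and 6570 and 5535 in Bt. Every GeneChip with B. longum was above every one without it, and Bl stood well above Bt/Bl. The main effect was 4.02-fold (log2 2.01, SE 0.32, adjusted p = 0.001, limma), made up of 10.7-fold in Bl over GF and 1.51-fold in Bt/Bl over Bt. The difference between these was itself called (interaction on the log2 scale -2.83, SE 0.32, adjusted p = 0.0107, limma). A second probe set of Ang4 was also called, at 1.67 on the log2 scale. Across all tested probe sets 15 were called for the interaction (0.0603%).

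Gsdmc2, a member of the pore-forming gasdermin C family of gut epithelium, was the only other higher gene whose sides did not overlap. It had 177230 and 128630 in Bl, 101718 and 89330 in Bt/Bl, against 53739 and 50192 in GF and 69192 and 47233 in Bt, a 2.2-fold main effect (log2 1.14, SE 0.20, adjusted p = 0.00363, limma). Over all genes 194 were higher without overlap between sides (1.5%) and 227 were lower (1.75%). A list of gasdermins, Schlafens and other colonocyte genes had 15 members tested, with 3 called higher (Plet1, Gsdmc2 and Trim40), 1 called lower (Mt2) and a median of 0.19. Beside these counts, 0.0618% of the 12937 genes tested were called higher and 0.155% lower. This list and those that follow were chosen with earlier results of these data known, so their counts of calls are not independent of the data. Trim40, a tripartite-motif protein of gut epithelium, had 34240 and 22712 in Bl, 25097 and 24798 in Bt/Bl, against 6651 and 10007 in GF and 22735 and 13421 in Bt. Its sides overlapped by a narrow margin, between Bl 9135 and Bt 9130, and the main effect was 2.21-fold (log2 1.14, SE 0.24, adjusted p = 0.0233, limma).

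Plet1, a surface protein of epithelial progenitors, was higher with B. longum in both pairs of states. The signal was 2703 and 1637 in Bl, 10593 and 12633 in Bt/Bl, against 365 and 280 in GF, both under the floor, and 3140 and 3336 in Bt. Bl was thus at least 3.61-fold above GF, and Bt/Bl was 3.57-fold above Bt, yet all of Bl lay below Bt. The fitted main effect, with GF at the floor, was 1.84 on the log2 scale (SE 0.32, adjusted p = 0.00286, limma). Another, dimmer probe set of Plet1 differed by -0.36 on the log2 scale with an adjusted p of 0.908 (limma), so the probe sets of this gene disagree. Tubb2a, a beta-tubulin, had 9896 and 20933 in Bl, 31441 and 23376 in Bt/Bl, against 5210 and 8484 in GF and 12337 and 11101 in Bt. Both pairs of states were apart without overlap, at 1.11 and 1.21 on the log2 scale, and the main effect was 2.24-fold (log2 1.16, SE 0.23, adjusted p = 0.012, limma), while its other probe set differed by 0.14.

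**Figure D2:**
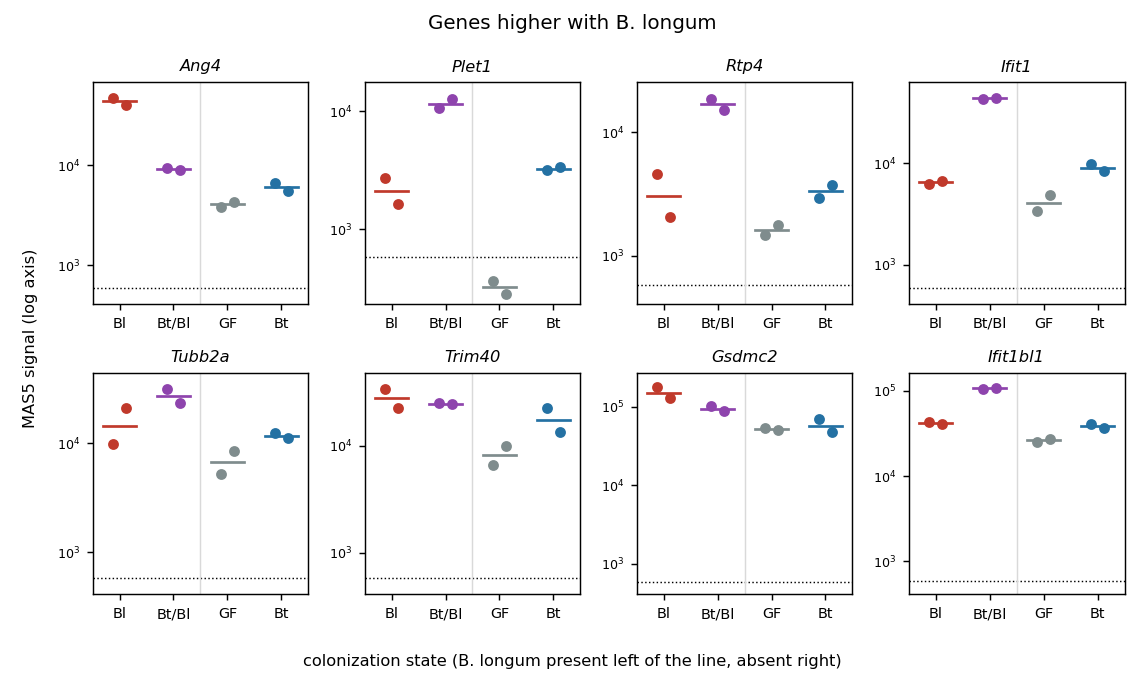
Signals of the 8 genes called higher with B. longum, with 1 point per GeneChip, a bar at the geometric mean of each state, a log axis and a dotted line at the floor of 583.1. Bt/Bl is the brightest state for Ifit1, Ifit1bl1, Rtp4, Plet1 and Tubb2a, and Bl is the brightest for Ang4, Gsdmc2 and Trim40.

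Of 40 genes listed as type I interferon-stimulated, 33 were tested, and 3 of them were called higher and 0 lower. At an unadjusted p under 0.05, 11 were higher and 0 lower, 29 of the 33 had a positive main effect, and the median was 0.59 on the log2 scale, beside 0 for all genes tested. The median of Bl minus GF was -0.06 and that of Bt/Bl minus Bt was 0.96, beside 0.01 and -0.01 for all genes. Ifit2, Stat2, Trim30a and Xaf1 passed the filter only through Bt/Bl, so their part in these medians is not independent of the filter.

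Ifit1 encodes a tetratricopeptide-repeat protein that binds foreign RNA. It had signals of 6239 and 6728 in Bl, 43357 and 44125 in Bt/Bl, against 3390 and 4845 in GF and 9757 and 8443 in Bt. Bt/Bl exceeded all other states, and Bl was above GF but below Bt. The main effect was 2.78-fold (log2 1.47, SE 0.25, adjusted p = 0.00216, limma), from 0.68 in Bl minus GF and 2.27 in Bt/Bl minus Bt. Ifit1bl1, a paralog of Ifit1 on the same chromosome, had 43300 and 40984 in Bl, 105547 and 109044 in Bt/Bl, against 25265 and 27453 in GF and 41440 and 36600 in Bt. Bt/Bl was again the highest state, while Bl and Bt overlapped, with a main effect of 2.1-fold (log2 1.07, SE 0.19, adjusted p = 0.00363, limma). As paralogs, these genes may share probes. Rtp4, a receptor-transporting protein induced by interferon, had 4569 and 2074 in Bl, 18560 and 15276 in Bt/Bl, against 1473 and 1782 in GF and 2928 and 3773 in Bt, a 3.1-fold main effect (log2 1.63, SE 0.31, adjusted p = 0.00805, limma). The interaction did not pass for any of these genes, with an adjusted p of 0.405 for each (limma), so their larger differences beside B. thetaiotaomicron were not called as such.

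The promoters of Ifit1 and Ifit1bl1, the called interferon-stimulated genes with an entry in RefSeq's promoter table, are shown for the letters that interferon-activated factors are known to bind. Each run covers 250 bases before to 50 bases after a start, 5' to 3' on the gene's strand in GRCm38.p6, and capitals mark matches to GAAANNGAAA or its reverse complement TTTCNNTTTC.
Ifit1, chr19:34640639-34640938, plus strand: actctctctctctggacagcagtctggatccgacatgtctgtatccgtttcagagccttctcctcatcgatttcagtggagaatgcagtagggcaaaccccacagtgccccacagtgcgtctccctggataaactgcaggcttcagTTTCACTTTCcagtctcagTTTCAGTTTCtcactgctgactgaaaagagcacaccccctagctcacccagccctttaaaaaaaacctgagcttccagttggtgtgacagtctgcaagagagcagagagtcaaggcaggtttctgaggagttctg
Ifit1bl1, chr19:34601919-34602218, minus strand: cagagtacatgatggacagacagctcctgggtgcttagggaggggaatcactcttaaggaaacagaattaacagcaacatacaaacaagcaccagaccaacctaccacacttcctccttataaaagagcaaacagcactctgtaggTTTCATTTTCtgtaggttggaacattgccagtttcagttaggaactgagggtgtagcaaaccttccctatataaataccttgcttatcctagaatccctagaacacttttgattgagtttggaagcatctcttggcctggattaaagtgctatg
Ifit1 held 2 matches, 104 and 85 bases before the start, and Ifit1bl1 held 1 match 104 bases before this start and 1 match 23 bases before another start in the table. Of the 33 tested genes in the interferon list 24 had an entry, and 11 of these held the motif (45.8%), beside 1079 of 27025 genes with an entry (3.99%). Of the 28 called genes 22 had an entry and 4 held the motif (18.2%), Ifit1 and Ifit1bl1 among the higher genes and Cyp4v3 and Tgfbi among the lower ones. Such a match describes the letters and not a site in use.

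Several interferon-stimulated genes did not pass the test but had their highest signals in Bt/Bl. Ifit2 had 929 and 344 in Bl, 5826 and 5740 in Bt/Bl, against 84.1 and 426 in GF and 203 and 1720 in Bt (log2 1.43, SE 0.51, adjusted p = 0.713, limma). This gene was kept by the filter only through Bt/Bl, so its place as the highest state was partly fixed by that choice. Every other state of Ifit2 had a signal under the floor. Slfn4 of the Schlafen family had 13119 and 12564 in Bl, 78811 and 71999 in Bt/Bl, against 12764 and 13184 in GF and 24936 and 11276 in Bt (log2 1.08, SE 0.28, adjusted p = 0.203, limma). Slfn4 and Herc6 were picked out after their values were seen. Herc6, a ubiquitin ligase-family gene, had 1003 and 1844 in Bl, 5366 and 4460 in Bt/Bl, against 421 and 1480 in GF and 1058 and 664 in Bt (log2 1.55, SE 0.47, adjusted p = 0.547, limma). In all of them Bl was close to GF or overlapped it. Ifit3 had a main effect of 0.01, with 549 and 518 in Bl, under the floor, 2282 and 1527 in Bt/Bl, against 755 and 1148 in GF and 1037 and 1289 in Bt. Zbp1, a sensor of nucleic acids, had 0.44 (SE 0.44, adjusted p = 0.844, limma). Isg15 was not analysed here, as no tested probe set carries its symbol alone.

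Of the interferon-inducible GTPases, which act on vacuoles that hold intracellular microbes, 8 were tested and 0 were called in limma (1 higher and 0 lower at an unadjusted p under 0.05), with 7 of the 8 above 0 and a median of 0.34 on the log2 scale. Ifi47 had 4714 and 4123 in Bl, 14472 and 17389 in Bt/Bl, against 2586 and 3060 in GF and 4774 and 7711 in Bt (log2 1.02, SE 0.25, adjusted p = 0.134, limma). Each state with B. longum was above its counterpart without it for Ifi47, but Bl lay below Bt. Irgm2 had a main effect of 0.86 (SE 0.48, adjusted p = 0.716, limma) and Igtp one of -0.34 (SE 0.35, adjusted p = 0.85, limma). Class I antigen presentation had 11 genes tested and 0 called (1 at an unadjusted p under 0.05), with a median of 0.16. Class II had 5 tested and 0 called (0 at that level), with a median of 0.09 that was -0.02 with median scaling. Targets of tumour necrosis factor and NF-kappaB had 14 tested and 0 called (2 at that level), with a median of 0.05 that was -0.06 with median scaling.

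**Figure D3:**
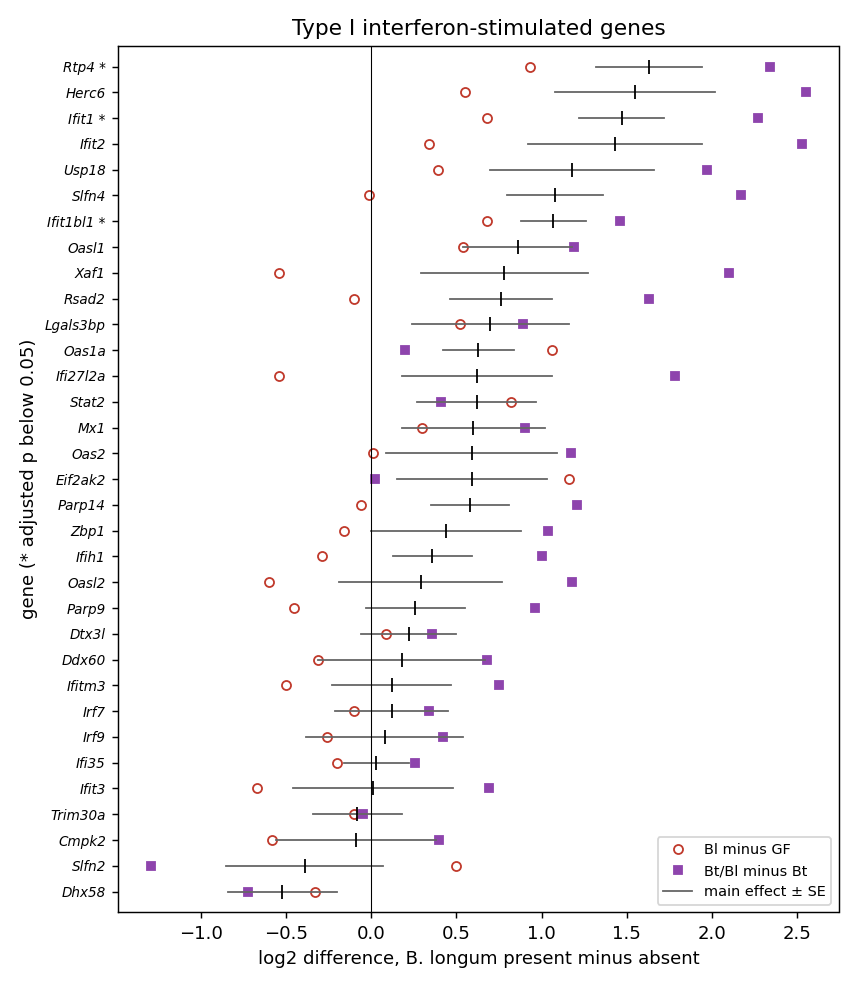
Log2 differences of the 33 interferon-stimulated genes tested, presence over absence of B. longum, with open circles for Bl minus GF, squares for Bt/Bl minus Bt and a tick with a bar for the main effect and its standard error. The squares lie to the right of the circles for most genes, with medians of 0.96 and -0.06.

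Among 24 tested genes of Reg lectins and other secreted antibacterial proteins, 1 was called higher (Ang4) and 1 lower (Reg3b), and the median was 0.17. Reg3b, a C-type lectin that kills bacteria, had 3803 and 4930 in Bl, 252956 and 263622 in Bt/Bl, against 136536 and 151076 in GF and 405724 and 362467 in Bt. Bl fell far below all other states, whereas Bt/Bl was above GF and below Bt, so the sides overlapped. The main effect of -2.81 on the log2 scale (SE 0.43, adjusted p = 6e-04, limma) averages -5.05 for Bl minus GF and -0.57 for Bt/Bl minus Bt, and describes neither of them. The interaction was 4.48 (SE 0.29, adjusted p = 0.000411, limma), the smallest adjusted p of all probe sets, and the main effect was not called when limma's robust estimate of the spread was used. Its second probe set had -2.14 and was called.

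Reg3g, the close relative of Reg3b that acts on Gram-positive bacteria, ran the same way without passing. It had 152 and 33.6 in Bl, under the floor, 7321 and 7842 in Bt/Bl, against 2437 and 2154 in GF and 16629 and 9676 in Bt (log2 -1.36, SE 0.31, adjusted p = 0.0618, limma). As Bl was at the floor, Bl was at least 3.93-fold below GF. Retnlb, a resistin-like protein of goblet cells, was picked out after its values were seen. It had 75687 and 100721 in Bl, 96333 and 91537 in Bt/Bl, against 31409 and 34152 in GF and 80494 and 89551 in Bt (log2 0.78, SE 0.21, adjusted p = 0.295, limma). GF was the low state for Retnlb, Bt/Bl lay above Bt, and Bl overlapped both.

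Of 17 tested goblet cell and mucus genes 0 were called in limma (5 higher and 1 lower at an unadjusted p under 0.05), and the median was 0. Muc4, a transmembrane mucin, had 3870 and 3102 in Bl, 5938 and 7952 in Bt/Bl, against 1913 and 1463 in GF and 2277 and 3541 in Bt (log2 1.16, SE 0.30, adjusted p = 0.18, limma). Each state with B. longum was brighter than its counterpart, by 1.05 and 1.28, and the sides overlapped. Another probe set of Muc4, near the floor, differed by -0.15. Clca1, a secreted protein of goblet cells, had 85225 and 78138 in Bl, 37098 and 41467 in Bt/Bl, against 33547 and 35968 in GF and 36004 and 36349 in Bt (log2 0.67, SE 0.20, adjusted p = 0.504, limma). Its sides did not overlap, and at this probe set Bl minus GF was 1.23 and Bt/Bl minus Bt 0.12. A second, dimmer probe set of Clca1 had 1 and 1.4 for these differences and a main effect of 1.2, without overlap (adjusted p = 0.526, limma).

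The genes of bile acid handling and lipid export held 4 of the 20 lower calls. Of 22 tested, 0 were called higher and 4 lower, 17 had a negative main effect, and the median was -0.31. Over all genes tested 0.0618% were called higher and 0.155% lower, and 6470 of 12937 were negative. Without overlap between sides 2 of the list were lower and 1 was higher, beside 1.75% and 1.5% of all genes. The higher one was Mttp, a gene of lipid export, at 1334 to 1810 with B. longum and 99.1 to 1121 without it (log2 0.93, adjusted p = 0.713, limma). Apoa1, the main protein of high-density lipoprotein, had 1321 and 1563 in Bl, 936 and 987 in Bt/Bl, against 39656 and 34578 in GF and 2245 and 2684 in Bt. Every GeneChip with B. longum was below every one without it, and GF was far above Bt. The main effect was 8.11-fold lower (log2 -3.02, SE 0.40, adjusted p = 0.000274, limma), with -4.69 for Bl minus GF and -1.35 for Bt/Bl minus Bt. The interaction was 3.33 (SE 0.44, adjusted p = 0.0278, limma), and the other 3 probe sets of Apoa1 were also called, between -2.02 and -2.89.

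Apob, the core protein of chylomicrons, had 28165 and 35409 in Bl, 21192 and 25030 in Bt/Bl, against 86650 and 81167 in GF and 36918 and 47778 in Bt, also without overlap (log2 -1.14, SE 0.19, adjusted p = 0.00173, limma). A second, far dimmer probe set of Apob had -0.07 and was not called (adjusted p = 0.987, limma). Apoa4, made by absorptive enterocytes, had 3566 and 509 in Bl, 1224 and 1124 in Bt/Bl, against 5279 and 3067 in GF and 10119 and 7832 in Bt. Its duplicates in Bl lay on either side of the floor, and Bl 9134 overlapped GF (log2 -2.2, SE 0.40, adjusted p = 0.00577, limma). For Apoa4 the difference was larger beside B. thetaiotaomicron, at -2.92 against -1.48 without it, with an interaction that did not pass (adjusted p = 0.544, limma).

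Fabp6, the bile acid-binding protein of ileal enterocytes, had 1558 and 1309 in Bl, 1179 and 1798 in Bt/Bl, against 68029 and 95108 in GF and 1210 and 1636 in Bt. GF alone was high, and the other 3 states overlapped. The called main effect (log2 -2.88, SE 0.57, adjusted p = 0.0157, limma) therefore rested on GF, with -5.82 for Bl minus GF and 0.05 for Bt/Bl minus Bt, and it was not called with limma's robust estimate of the spread. The summed signal of 6 ileal enterocyte markers was 15767 to 21654 with B. longum, against 91072 and 116502 in GF and 31556 and 22110 in Bt. That sum holds Fabp6 and Apoa4, and the sum of the 3 tested markers left without them, a choice made after the data were seen, was 12878 to 18255 with B. longum and 12588 to 20094 without it, so that the sides overlapped. Of these markers Fgf15 was not tested, 5 were tested and 5 had a negative main effect. Whether ileal cells in the captured tissue had a part in the values of Apoa1, Apoa4, Apob or Fabp6 was not tested. In pooled tissue, fewer cells of a type and less RNA per cell cannot be told apart.

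Genes of 2 transporters and a peptidase, Slc5a9, Slc7a9 and Enpep, were also called lower, and they were not drawn from a list of the absorptive surface. Slc5a9, a sodium-coupled sugar transporter, had 2447 and 1313 in Bl, 1981 and 2056 in Bt/Bl, against 2231 and 15804 in GF and 15653 and 30264 in Bt. The duplicates of GF differed widely, and GF 9128 lay among the values with B. longum (log2 -2.58, SE 0.39, adjusted p = 6e-04, limma). The other 3 probe sets of Slc5a9, all dimmer, had -0.67, -0.14 and 0.05. Slc7a9, the light chain of the transporter of cystine and dibasic amino acids, had 1351 and 1521 in Bl, 750 and 1009 in Bt/Bl, against 4351 and 4290 in GF and 3326 and 3532 in Bt. Its sides did not overlap, and both differences were alike, at -1.59 and -1.98 (main effect 3.45-fold lower, log2 -1.79, SE 0.35, adjusted p = 0.0151, limma). Enpep, an aminopeptidase of the brush border, had 5266 and 6593 in Bl, 4960 and 3348 in Bt/Bl, against 11218 and 14539 in GF and 9567 and 8126 in Bt, with -1.12 and -1.11 for the differences (log2 -1.11, SE 0.23, adjusted p = 0.0233, limma).

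Gja1, which encodes the gap junction protein connexin 43, was called in every fit with 1 GeneChip left out. It had 2677 and 2315 in Bl, 2513 and 3058 in Bt/Bl, against 10238 and 11630 in GF and 18362 and 5927 in Bt. The states with B. longum overlapped each other, as did those without it, and the sides did not overlap. The main effect was 4.06-fold lower (log2 -2.02, SE 0.28, adjusted p = 0.000291, limma), and the interaction was 0.22 (SE 0.63, adjusted p = 0.904, limma). The other 4 probe sets of Gja1, all dimmer, had -0.84 to -1.78 and were not called, with 0.0503 as the lowest adjusted p (limma). The called probe set has the suffix _x_at, given where probes may match more than 1 transcript. The one Gja1 probe set without that suffix had -0.84 (adjusted p = 0.713, limma). Prss23, a secreted serine protease, had 3720 and 6628 in Bl, 2851 and 2076 in Bt/Bl, against 9309 and 22209 in GF and 14861 and 8237 in Bt. It too was without overlap (3.63-fold lower, log2 -1.86, SE 0.28, adjusted p = 6e-04, limma), and its second probe set, near the floor, had -0.52 and was not called.

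**Figure D4:**
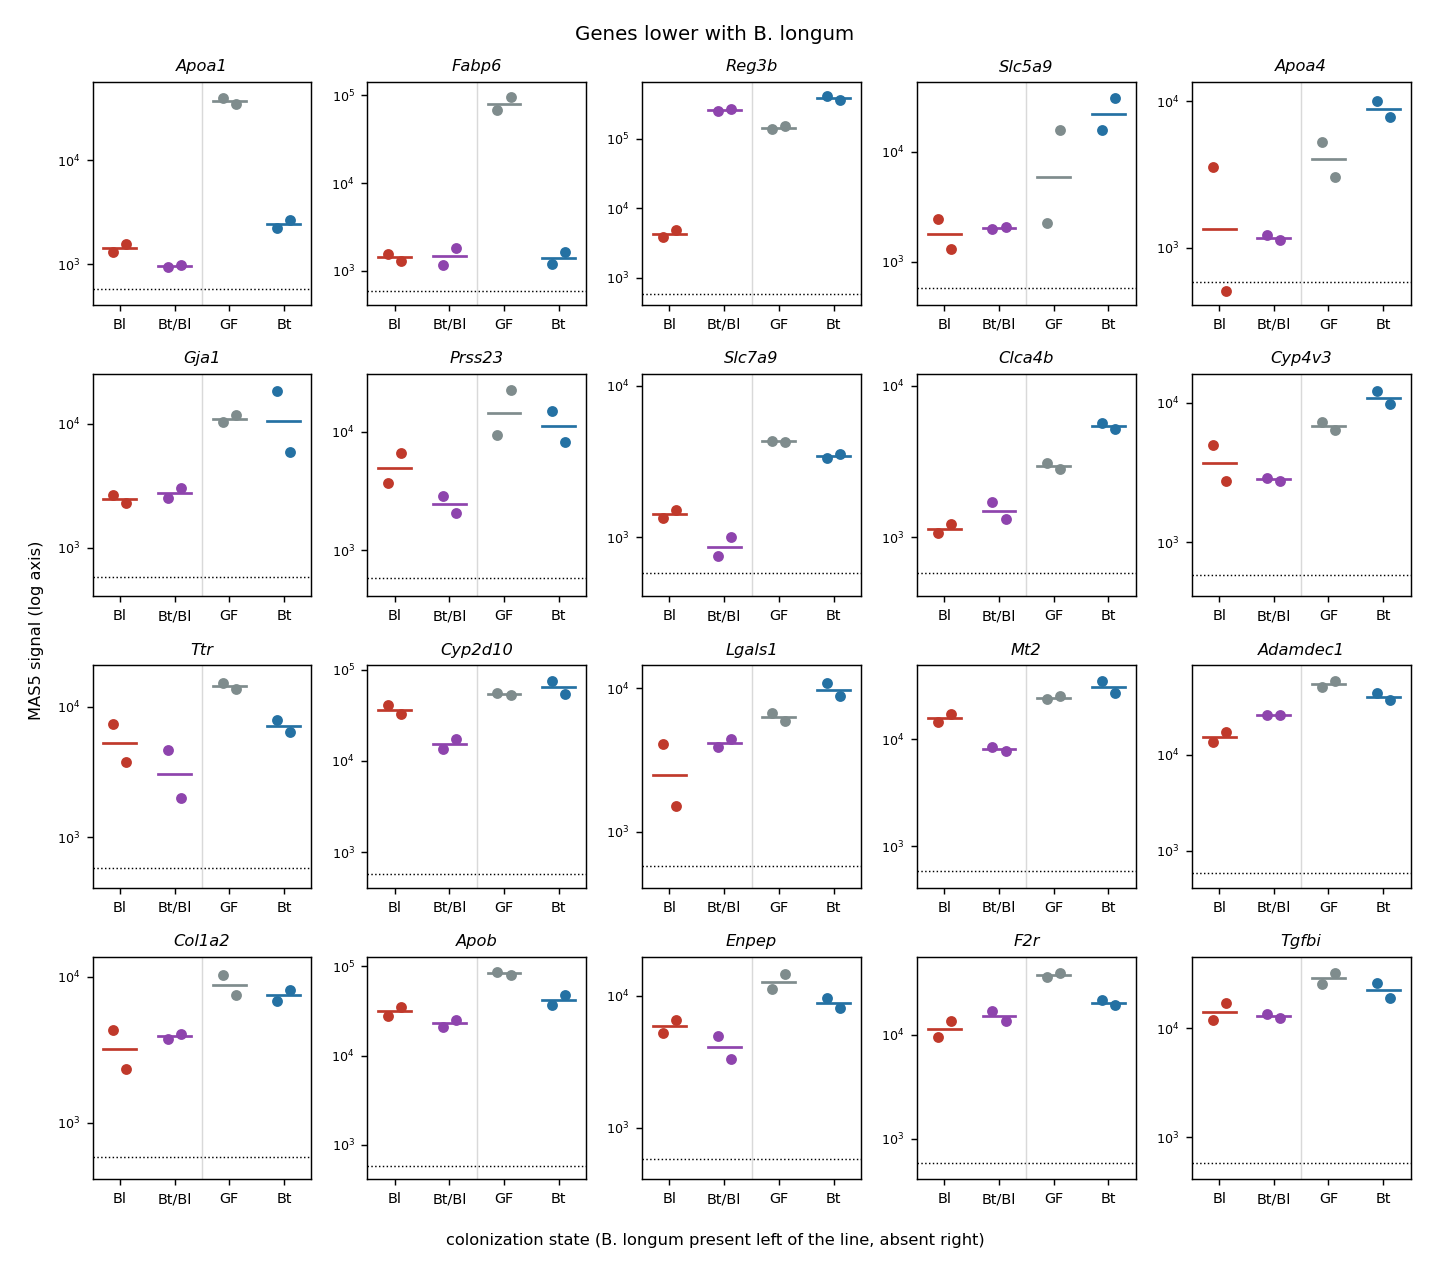
Signals of the 20 genes called lower with B. longum, with 1 point per GeneChip, a bar at the geometric mean of each state, a log axis and a dotted line at the floor of 583.1. GF is the only bright state for Fabp6, Bl is the only dim state for Reg3b, and for Gja1, Slc7a9 and Enpep both states with B. longum are below both without it.

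Other genes called lower had roles in detoxification, carriage and ion transport. Mt2, a metallothionein that binds zinc and copper, had 14431 and 17314 in Bl, 8419 and 7758 in Bt/Bl, against 23909 and 25204 in GF and 34725 and 26893 in Bt (2.42-fold lower, log2 -1.28, SE 0.22, adjusted p = 0.00248, limma). Cyp2d10, a cytochrome P450, had 41224 and 32410 in Bl, 13528 and 17448 in Bt/Bl, against 55802 and 53143 in GF and 75833 and 53648 in Bt (2.49-fold lower, log2 -1.31, SE 0.23, adjusted p = 0.00248, limma). Both were without overlap between sides and lowest in Bt/Bl. Clca4b of the chloride channel accessory family had 1065 and 1225 in Bl, 1711 and 1314 in Bt/Bl, against 3116 and 2844 in GF and 5672 and 5164 in Bt (3.07-fold lower, log2 -1.62, SE 0.34, adjusted p = 0.0264, limma). Its sides did not overlap either. Cyp4v3, another P450, was called at -1.42 (adjusted p = 0.00875, limma), with a second probe set at 0.11. Ttr, which carries thyroid hormone and retinol-binding protein, was called at -1.34 (adjusted p = 0.0147, limma), with its other 3 probe sets at 0.42, -0.53 and -1.25.

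The remaining functional lists gave no calls in limma. Of 28 tested enzymes of xenobiotic metabolism and conjugation 0 were called, 0 were higher and 6 lower at an unadjusted p under 0.05, 24 had a negative main effect and the median was -0.31, with -0.03 for Bl minus GF and -0.43 for Bt/Bl minus Bt. Ces2a, a carboxylesterase, had 6140 and 6286 in Bl, 3313 and 3825 in Bt/Bl, against 6846 and 9549 in GF and 7626 and 10043 in Bt, without overlap (log2 -0.84, SE 0.25, adjusted p = 0.473, limma). Of 21 PPAR targets and genes of fatty acid oxidation 17 were negative, with a median of -0.23 and 1 higher and 3 lower at that level, and of 19 genes of cholesterol and fatty acid synthesis 15 were negative, with a median of -0.19 and 1 higher and 2 lower. Of 24 cell cycle genes 19 were positive, 5 were higher and 1 was lower at an unadjusted p under 0.05, the median was 0.31, and both component medians were positive at 0.26 and 0.38. Mki67, a marker of cycling cells, had 10418 and 12717 in Bl, 21106 and 9373 in Bt/Bl, against 6522 and 6744 in GF and 9261 and 7408 in Bt (log2 0.78, SE 0.23, adjusted p = 0.484, limma). The sides of Mki67 did not overlap, by a margin of 9373 in Bt/Bl against 9261 in Bt.

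Aqp8, a water channel of surface colonocytes, came close to the threshold in a list of water, ion and fatty acid transport with 20 genes tested and 0 called in limma (3 higher and 2 lower at an unadjusted p under 0.05), 13 of the 20 positive and a median of 0.16. It had 38596 and 49985 in Bl, 42880 and 42730 in Bt/Bl, against 10169 and 14517 in GF and 33810 and 39872 in Bt (log2 1.04, SE 0.23, adjusted p = 0.0586, limma). GF was low and the other states were close together. Slc9a3, the sodium-proton exchanger of the apical surface, had 20487 and 20141 in Bl, 6844 and 8193 in Bt/Bl, against 28279 and 23817 in GF and 26732 and 13163 in Bt (log2 -0.84, SE 0.22, adjusted p = 0.261, limma). The circadian list had 13 genes tested and 0 called (0 at that level) with a median of 0.13, and the immediate early list had 14 tested and 0 called (4 higher and 0 lower) with a median of 0.18. Fos, an immediate early transcription factor, had 20163 and 16847 in Bl, 29072 and 21229 in Bt/Bl, against 16253 and 15732 in GF and 11544 and 8392 in Bt, without overlap (log2 0.77, SE 0.22, adjusted p = 0.384, limma).

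Of 7 fibroblast markers 2 were called lower with B. longum, Adamdec1 and Col1a2, all 7 had a negative main effect, and the median was -0.49. Over all genes tested 0.155% were called lower, 6470 of 12937 had a negative main effect, and the median was 0. The 5 that were not called ran from -0.08 for Lum and -0.13 for Dcn, both matrix proteoglycans, to -0.89 for Col3a1, a collagen chain (adjusted p = 0.195, limma). Adamdec1, a metalloprotease-like protein of the lamina propria, had 13749 and 17394 in Bl, 26266 and 26316 in Bt/Bl, against 51699 and 59602 in GF and 44297 and 37624 in Bt (2.36-fold lower, log2 -1.24, SE 0.21, adjusted p = 0.00216, limma). Col1a2, a chain of type I collagen, had 4342 and 2335 in Bl, 3761 and 4091 in Bt/Bl, against 10335 and 7546 in GF and 6859 and 8116 in Bt (2.3-fold lower, log2 -1.2, SE 0.26, adjusted p = 0.038, limma), with a second probe set at -0.14. Neither gene overlapped between sides, and 1.75% of all genes were lower without overlap.

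The summed signal of the 7 fibroblast markers was 27663 and 28151 in Bl, 41324 and 40571 in Bt/Bl, against 82976 and 84417 in GF and 62843 and 60936 in Bt. All 4 GeneChips with B. longum were below all 4 without it, both with and without B. thetaiotaomicron. Adamdec1 and Col1a2 made up most of that sum, and without them the 5 other markers summed to 8422 to 11297 with B. longum and 11687 to 20942 without it, a choice made after the data were seen. Col3a1 made up most of this smaller sum, at 5000 to 8340 with B. longum and 9050 to 15400 without it. Col1a1, Dcn, Lum and Pdgfra each overlapped between sides. F2r, the thrombin receptor, had 9429 and 13498 in Bl, 17072 and 13432 in Bt/Bl, against 35582 and 39364 in GF and 21583 and 19143 in Bt (2.11-fold lower, log2 -1.08, SE 0.22, adjusted p = 0.024, limma). Lgals1, the galectin abundant in mesenchyme, was called at -1.28 (adjusted p = 0.0359, limma) and Tgfbi, a matrix protein, at -0.9 (adjusted p = 0.0446, limma). These 3 genes did not overlap between sides either. Adamdec1, Col1a2, F2r, Tgfbi and Enpep were chosen after their values were seen. Smooth muscle markers summed to 5225 to 6785 with B. longum and 6028 to 15325 without it, with Tagln and Cnn1 never above the median of all values. The part of captured stroma in the lower genes was not tested.

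B and plasma cell markers did not separate the sides. Their sum was 35567 and 33600 in Bl, 59912 and 43528 in Bt/Bl, against 128670 and 112323 in GF and 18781 and 20998 in Bt. Igha, the heavy chain of immunoglobulin A, made up most of it, with 25565 and 27712 in Bl, 49896 and 34067 in Bt/Bl, against 113964 and 95694 in GF and 12171 and 13110 in Bt. Bl was below GF and Bt/Bl was above Bt, so the main effect was -0.13 (SE 0.37, adjusted p = 0.961, limma), while Tnfrsf17, which marks plasma cells, was never above the median of all values. The plot of marker sums shows these lists beside the epithelial one.

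**Figure D5:**
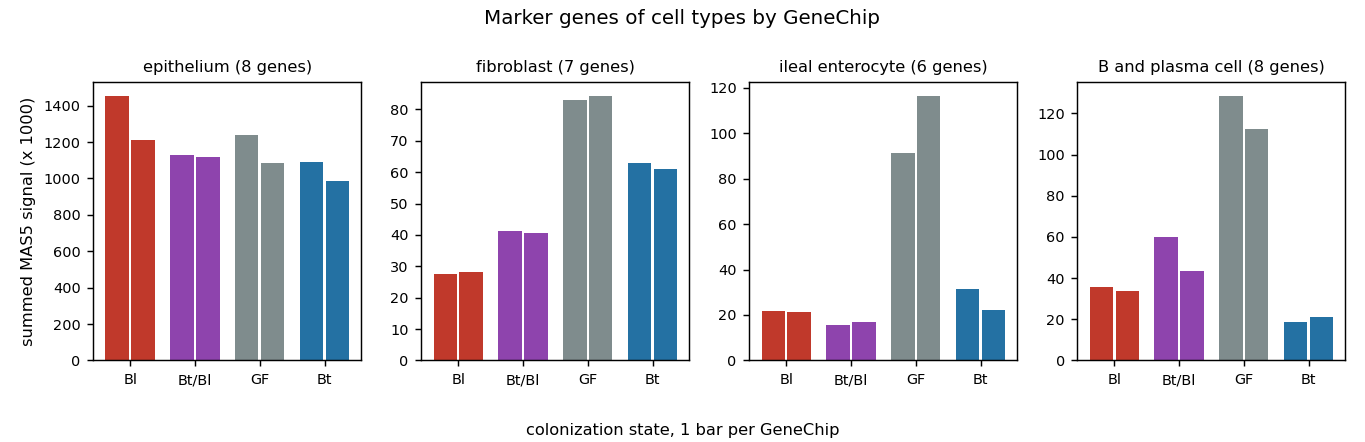
Summed MAS5 signal, as a multiple of 1000, of the marker genes of 4 cell types, 1 bar per GeneChip, with states containing B. longum on the left. The fibroblast sums are 27663 to 41324 with B. longum and 60936 to 84417 without it, and the ileal enterocyte and B and plasma cell sums are highest in GF.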

How the data were processed

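Cecal epithelium was laser-captured and RNA of 4 mice per state was pooled, amplified in duplicate and hybridized to Mouse 430 2.0 GeneChips. The deposited values were linear intensities (MAS5 signals) per probe set, made by the authors and scaled to a common trimmed mean, without detection calls. They were used as deposited. Signals under the median of all values, 583.1, were raised to it and put on the log2 scale. The table has 45101 probe sets, of which 64 controls were left out. Of the others 34945 carry 1 symbol in the platform annotation, 932 several and 9160 none. limma 3.58.1 in R 4.3.3 fitted B. longum and B. thetaiotaomicron as additive factors on all 8 GeneChips (lmFit, eBayes with an intensity trend, 5 residual degrees of freedom), and a mean per state for the interaction (4 degrees of freedom). The steps were tested on simulated data with the spread of duplicates and additive effects of B. longum only. Those data held no spread between pools, effect of B. thetaiotaomicron or interaction. They therefore cannot show how the calls stand up to spread between pools. limma pools the spread over probe sets, so the SE of a gene with a large interaction can be smaller than its own residuals imply.

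Named genes were up to 12 called genes in each direction with both differences of 1 sign, 11 genes that the study names, up to 4 called members of each of 30 lists (otherwise the 2 smallest p) and the 6 smallest interaction p. The members, lists and floor were chosen with earlier results of these data known. Alternatives were other scalings, floors, filters, estimates of spread, pool-level fits and each GeneChip left out. The number of GeneChips limits the precision. The GlycoGeneChip table was not used here.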

Additional observations from a re-analysis of the deposited data

Results flagged for a closer look

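In 7 of the named genes the difference made by B. longum without B. thetaiotaomicron (Bl minus GF) differed from that beside it (Bt/Bl minus Bt) by limma's test of the interaction, which is the second difference minus the first on the log2 scale. The interaction was 4.48 for Reg3b (adjusted p = 0.000411, limma), 5.87 for Fabp6 (adjusted p = 0.00153, limma), 3.68 for Igha (adjusted p = 0.00162, limma), 3.33 for Apoa1 (adjusted p = 0.0278, limma), -2.83 for Ang4 (adjusted p = 0.0107, limma), -2.61 for Acaa1b (adjusted p = 0.0107, limma) and -3.66 for Dbp (adjusted p = 0.0107, limma).

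Acaa1b, a peroxisomal thiolase of fatty acid oxidation, had 270804 and 271379 in Bl, 164919 and 168837 in Bt/Bl, against 112718 and 107337 in GF and 392354 and 437043 in Bt. Dbp, a transcription factor of clock output, had 18078 and 14120 in Bl, 9300 and 8142 in Bt/Bl, against 3002 and 3863 in GF and 29501 and 18554 in Bt. For both genes Bl was above GF and Bt/Bl was below Bt. For Fabp6, Igha and Apoa1 the GF pool was the highest state. The interaction calls depended on single GeneChips: 0 probe sets were called by limma without either GF, without Bt 9443 or without either Bt/Bl GeneChip, against 15 with all 8.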

How the results depend on the processing

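With all 8 GeneChips 10 probe sets were called higher and 24 lower, and 15 for the interaction. In the same order, the counts were 3, 14 and 4 with median scaling, 3, 14 and 4 with 75th percentile scaling, 21, 27 and 13 with quantile normalization, 7, 15 and 28 with the floor at the 25th percentile, 1, 4 and 25 with no floor, 0, 0 and 0 with no filter on low signals (1633 at an unadjusted p under 0.05), 1, 4 and 20 with the filter at the 75th percentile, 0, 0 and 3 with no intensity trend (1530), and 18, 35 and 27 with robust eBayes. For the main effect only, the higher and lower counts were 13 and 29 with the pool as a random block (correlation -0.0692), 5 and 14 with pool means, 3 and 11 with a mean for each state, 3 and 14 with no block for B. thetaiotaomicron, 0 and 0 without both GF GeneChips, and 0 and 0 in Bl against GF only. Of the 34 calls, 17 remained with median scaling, 33 with quantile normalization, 19 with pool means and 14 with a mean for each state. With 1 GeneChip left out the higher count ran between 1 and 22, the lower count between 4 and 31 and the interaction count between 0 and 1029, the last without Bl 9135 (238 without Bl 9134 and 126 without Bt 9130). The cause was not tested. The interaction could not be fitted with the pool as a block, since each state is 1 pool. No paired analysis was possible because states share no GeneChip number.

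Median scaling moved the median of all genes to -0.08 and 75th percentile scaling to -0.05. Values that changed sign were those of Acaa1b (0.03 with quantile normalization, 1.3 in Bl against GF only, -0.28 to 0.29 with 1 GeneChip left out), Ifit3 (-0.06 with the lower floor, -0.06 with no floor, -0.67 in Bl against GF only, -0.24 to 0.27), Igha (1.71 without both GF, -0.61 to 0.29) and Dbp (-1.43 without both GF, -0.04 to 0.9). Without both GF, Igtp had 0.28, Fabp6 0.05 and Cry1 0.39. In Bl against GF only, Zbp1 had -0.16, H2-Ab1 -0.34, Nfkbiz -0.03 and Birc3 -0.17. Of 1379 values under an alternative, 967 kept their direction and side of the threshold, 378 kept the direction and lost the threshold, 6 gained it and 28 reversed. These values are those of all named genes, many of them not called in the main fit. A gene that stayed uncalled counts among the 967, so that number does not measure how stable the calls were. Of 28 called genes 15 had another probe set tested, 3 of them (Ang4, Apoa1 and Reg3b) had another one called, and 5 (Cyp4v3, Plet1, Slc5a9, Tgfbi and Ttr) had one of opposite sign. For 11 of the 28 the probe set used has the suffix _x_at or _s_at, so its probes may match more than 1 transcript. Signals near the floor carry little information at this brightness.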
